A study of Mus musculus with 8 samples.

Results

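The methylated base N6-methyladenosine (m6A) was mapped on the transcripts of Rab and Arf GTPases and of the proteins that regulate them or sort membrane cargo with them. The members were all entries of the deposited m6A peak lists whose gene name starts with Rab, Arf, Vps or Snx followed by a digit, or with Tbc1d, Dennd, Arfgef or Arfgap. They comprised 138 of 9779 genes with a peak and 501 of 38705 peaks. Peaks that overlapped across lists were merged into regions, and 298 of 21168 regions lay on member genes.

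The cells were wild type mouse embryonic fibroblasts (MEFs) of the C57BL/6 strain, taken from embryos at 13.5 days and used at passages 5 to 6. Control cells stayed in full medium, and starved cells spent 2 h in nutrient-deprived medium. Each condition had 2 replicates, and each replicate gave an immunoprecipitated (IP) library, made with an antibody against m6A, and an input library without antibody. The comparison addresses how the m6A profile of mRNA differs between fed and starved cells. Each of the 4 IP libraries came with its own list of peaks called over the matching input, with 8974 to 10103 peaks per list. The paper describes them as 2 biological replicates. Nothing in the labels says whether replicates came from separate embryos or cultures, so p-values measure only the spread between these libraries. The lists hold no reads, and the depth of each library is therefore unknown.

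The cell type could be checked only through genes that carry peaks. Of 10 fibroblast markers, 8 had a peak in at least 1 list and 4 had one in every list, among them the growth factor receptor genes Pdgfra and Pdgfrb. Col1a1 and Vim had none, and a missing peak is not missing expression. Of 4 immune markers 1 had a peak, of 4 epithelial markers 2, and of 4 endothelial markers 2, with 0 to 2 peaks per list for each of these sets. Their part in the results was not tested.

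Rab and Arf proteins are small GTPases that switch between a GTP-bound state, in which they hold effectors on a membrane, and a GDP-bound state. Exchange factors such as the DENN domain proteins and the ARFGEFs switch them on, and GTPase-activating proteins such as the TBC domain proteins and the ARFGAPs switch them off. Sorting nexins (SNX) bend and mark endosomal membranes, and VPS proteins build the complexes that sort cargo between endosome, Golgi and lysosome: retromer, HOPS and CORVET, ESCRT and GARP. Starved cells rely on this machinery, since autophagosomes grow from membranes that Rab and Arf proteins supply and end by fusing with lysosomes with the help of HOPS. The name rule also takes in the VPS13 lipid transfer proteins, which stand here with the VPS genes, and Vps72, a subunit of chromatin complexes, which was kept out of the classes.

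The m6A writer complex methylates adenosines in short motifs of which GGAC is the core. The first 10 sequences below lie in regions whose groups did not overlap, those with the 5 largest differences in each direction. The other 5 lie in regions picked from those seen in 1 group only. All are shown so that the letters under those peaks can be read. Each is the 30-base window around the GGAC nearest to the centre of the region's peak, from the GRCm38 reference (the assembly of mm10), written 5′ to 3′ on the strand of the transcript with GGAC in capitals. The letters are printed as DNA.
Dennd2a, coding, chr6:39523368-39523397, minus strand: cagatggccaagaGGACcacctgccatcct
Snx18, coding, chr13:113617093-113617122, minus strand: tcaccaagaagatGGACgacagtgcgttgc
Tbc1d13, 3′ UTR, chr2:30151865-30151894, plus strand: tggctccgcagttGGACgctgcctgaggga
Snx4, 3′ UTR, chr16:33298839-33298868, plus strand: gatttactttgtaGGACccacttctgctat
Arfgap1, 3′ UTR, chr2:180982116-180982145, plus strand: agcatcttaatggGGACcctccatccgggc
Vps29, coding, chr5:122362151-122362180, plus strand: ggcagtttgatgtGGACattcttatctcag
Vps26b, coding, chr9:27029516-27029545, minus strand: agcacaagactgaGGACgggaagaaggaga
Arf1, 3′ UTR, chr11:59212108-59212137, minus strand: agttaaaaatacaGGACaagaacacttgaa
Vps33a, 3′ UTR, chr5:123530338-123530367, minus strand: ctctgcccagaagGGACtgatcaagagtga
Rab12, 3′ UTR, chr17:66495121-66495150, minus strand: gttcctggataggGGACtggacttagtccc
Tbc1d9, coding, chr8:83234280-83234309, plus strand: tgaggcagctcttGGACaatgaaggatttg
Vps13c, coding, chr9:67945990-67946019, plus strand: agcacttggagctGGACtacgccagcctgg
Dennd5b, coding, chr6:149044614-149044643, minus strand: aggccgacttgagGGACtcccagctcaatg
Snx27, coding, chr3:94561845-94561874, minus strand: tgacgactccttgGGACaatcattttatga
Vps4a, 3′ UTR, chr8:107045306-107045335, plus strand: gcttcaccatgtaGGACacttgagactggc

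GGAC, searched on the transcript strand only, stood in the 200 bases of spliced transcript around the centre of 320 of 489 placed member peaks (65.4%), and in 63.5% of all 36878 placed peaks. By library, the share of member peaks with GGAC was 63.6% and 65.6% in the controls and 72.1% and 60.2% in the starved cells, so that the groups overlapped. The means were 64.6% ± 1.48 and 66.2% ± 8.46 (SD, n = 2 each), with an exact permutation p of 1.00. At a false discovery rate under 20% the difference was 8.79 points and the groups separated (exact permutation p = 0.333). Regulator peaks carried it in 67.7%, coat and sorting peaks in 67.2%, GTPase peaks in 61.0% and effector peaks in 60.0% of cases. A match describes the letters and does not locate a methylated base. Several of the regions described below, among them those of Arf5, Rab5a in its 5′ UTR, Rab1 in its 5′ UTR and Vps35, held no GGAC in their exonic bases.

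Every class carried m6A peaks, and every class had genes that were marked in all libraries. Peaks fell on 47 GTPase genes, 38 regulator genes, 4 effector genes and 48 coat and sorting genes. A peak was found in all 4 lists for 13 GTPases, 13 regulators, 2 effectors and 13 coat and sorting genes, together 41 of 138 genes. These counts are per gene over any site, so the peaks of different lists can lie at different sites. Rab40c, for example, had 4 peaks in 4 regions and Vps13b 6 peaks in 6 regions, each region called in a single list. Only 27 member regions were called in all 4 lists. Another 24 genes had a peak in 3 lists, 33 in 2 lists and 40 in a single list. Set against the annotation under current gene symbols, 142 of 192 protein-coding genes with such a name had a peak (74.0%), as did 42.7% of all 21900 protein-coding genes, and 42 had one in every list (21.9%, against 12.7%). Many annotated genes are silent in fibroblasts, and the lists hold no expression level to compare.

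Among the Rab GTPases, Rab5a and Rab31, which act at early endosomes and in Golgi to endosome transport, had a peak in every list. So did Rab11b of recycling endosomes, Rab35, Rab8b, Rab13, Rab12, Rab9, Rab1b, Rab33b and Rab40c. Rab33b binds the autophagy protein ATG16L1. Rab7 (current symbol Rab7a), which marks late endosomes and lysosomes, had a 3′ UTR peak in control replicate 2 at a fold enrichment of 6.58 and in starved replicate 2 at 4.54, and in no other list. That region had a near-identical copy elsewhere in the genome, so its reads could come from either place. Fold enrichment here is the ratio of IP to local input signal given for each peak. Rab1, Rab10, Rab22a, Rab23, Rab27b, Rab43 and Rab7l1 (current symbol Rab29) had peaks in 3 lists. Rab20, Rab28, Rab32, Rab3b, Rab4b and Rab8a had them in 2 lists, and 18 further Rab genes, among them Rab2a, Rab4a, Rab5b, Rab5c, Rab14 and Rab18, in 1. Of the Arf genes, Arf1 and Arf6 were marked in every list, Arf5 in 2, Arf3 in 1, and Arf2 and Arf4 in none. Rab11a, Rab6a, Rab21 and Rab34 also had no peak.

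The regulators with a peak in every list, counted over any site of the gene, were 8 TBC proteins (Tbc1d2, Tbc1d2b, Tbc1d5, Tbc1d8b, Tbc1d9, Tbc1d10b, Tbc1d13 and Tbc1d24), 3 DENN proteins (Dennd2a, Dennd4a and Dennd4c), Arfgap1 and Rab3gap2. Of the 110 regulator regions, 4 were called in every list. Tbc1d5 and Tbc1d2 act on Rab7, and Rab3gap2 is a subunit of a Rab3 and Rab18 regulator. The effectors were the Rab11-binding proteins Rab11fip3 and Rab11fip5 in 4 lists and Rab11fip1 and Rab11fip2 in 2. The VPS complexes differed in how many subunits had a peak in every list. Under current symbols, all 6 annotated retromer and Commander subunits had a peak and 3 had one in every list. HOPS and CORVET had peaks on 7 of 8 subunits and in every list on Vps18 and Vps33a. ESCRT had peaks on 7 of 9 subunits but in every list on 0 of them. GARP and EARP had 4 of 5, with Vps54 in every list, and all 4 VPS13 genes had peaks, with Vps13b and Vps13d in every list. Sorting nexins had peaks on 22 of 30 genes, and Snx3, Snx4, Snx18, Snx21, Snx30 and Snx33 had them in every list. These counts were not tested against each other.

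The number of member peaks did not separate control from starved cells. The control lists held 119 and 135 member peaks and the starved lists 127 and 120. The mean was 127 ± 11.3 in control and 124 ± 4.95 in starved cells (SD, n = 2 each), a difference of -3.50 peaks with an exact permutation p of 1.00. With 2 libraries against 2 the smallest two-sided p that this test allows is 0.333, so no difference between libraries could pass 0.05. A peak count measures neither cell number nor RNA per cell. In bulk samples of this kind, fewer cells of a type and less RNA per cell cannot be told apart. Member peaks made up 1.18% and 1.37% of the control lists and 1.30% and 1.34% of the starved lists.

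Fewer member genes had a peak in starved cells, 84 and 80 against 85 and 93, and the groups did not overlap (difference -7.00 genes, exact permutation p = 0.333). Over all genes the lists moved the same way, from 6387 and 6171 genes with a peak in control to 6159 and 5839 in starved cells. With lists of equal length the member difference was -5.50 and the groups no longer separated (exact permutation p = 0.667), and at a false discovery rate under 20% it was 7.50, with more member genes in starved cells (exact permutation p = 0.333). The median log2 fold enrichment of member peaks was 3.54 and 3.59 in control and 3.71 and 3.68 in starved lists. The difference of 0.13 had the same exact permutation p of 0.333. The whole lists moved the same way and further, from log2 medians of 3.61 and 3.62 to 3.87 and 3.88. As ratios these are 12.2-fold and 12.3-fold in control and 14.6-fold and 14.7-fold in starved lists. At a false discovery rate under 20% the member difference was 0.012 and the groups no longer separated. By class, GTPase peaks numbered 37 and 36 in control and 33 and 35 in starved lists. Regulator peaks numbered 32 and 52 against 39 and 37, so that the replicates of the control group spread further than the groups. Coat and sorting peaks numbered 46 and 42 against 50 and 41, and effector peaks 4 and 4 against 5 and 7.

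**Figure D1:**
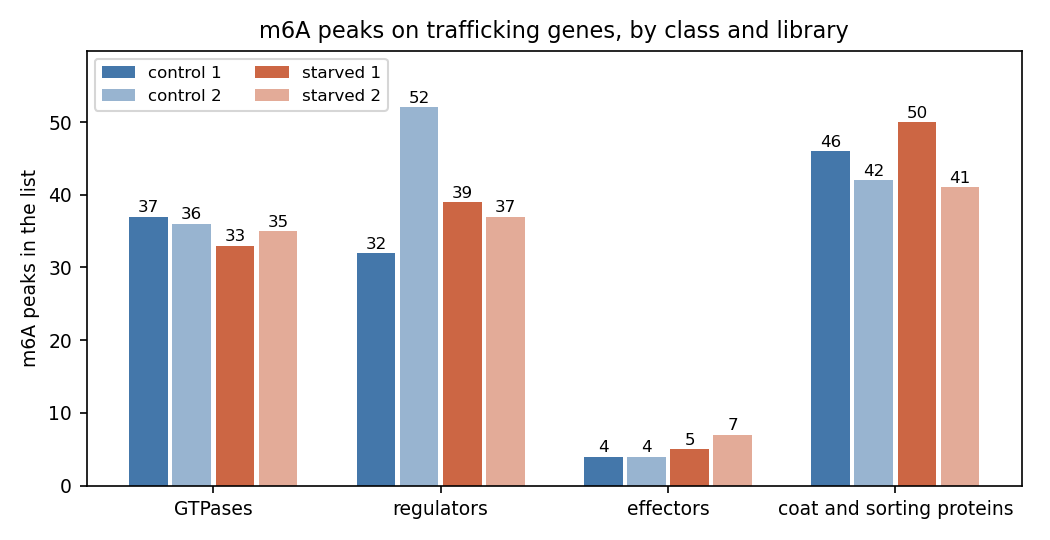
Number of m6A peaks (y axis) on GTPase, regulator, effector and coat and sorting genes (x axis), 1 bar per IP library, with control libraries in blue and starved libraries in orange. Regulators ranged from 32 to 52 peaks within the control group alone, and GTPases from 33 to 37 over all libraries.

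Peaks on GTPase transcripts lay mostly in the 3′ UTR. Of 136 placed GTPase peaks, 63.2% were in the 3′ UTR, 15.4% in coding sequence, 9.56% in the stop codon window (100 nt to either side) and 11.8% in the 5′ UTR. Over all placed peaks the shares were 36.9%, 45.7%, 12.5% and 4.87%. GTPase transcripts are built differently: they had a median coding length of 621 nt and a median 3′ UTR of 1975 nt, against 1890 nt and 1510 nt over all peaks. If peaks fell evenly along the transcripts, 58.4% of GTPase peaks would lie in the 3′ UTR and 23.3% in coding sequence. The ratio of observed to even placement was thus 1.08 for the 3′ UTR and 0.662 for coding sequence. In the stop codon window this ratio was 1.17 for GTPases, 1.9 for regulators, 2.00 for coat and sorting genes and 2.14 for all peaks.

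Regulator peaks were close to the whole lists in coding sequence (49.7%) and the 3′ UTR (40.0%). In the stop codon window and the 5′ UTR they stood lower, at 7.74% and 2.58% against 12.5% and 4.87% over all peaks. Coat and sorting peaks stood between GTPases and regulators in coding sequence and the 3′ UTR, at 39.0% and 44.1%. The same site can be counted in several lists, and these shares were described without a test. Among regions, 55 of 77 placed GTPase regions lay after the stop codon, at a median of 341 nt past it. Regulator regions lay after it in 48 of 105 cases, and coat and sorting regions in 50 of 94. Between groups, the share of member peaks in the stop codon window was 11.9% and 6.87% in control and 10.7% and 10.2% in starved lists. The means of 9.37% ± 3.53 and 10.4% ± 0.344 (SD, n = 2 each) overlapped, with an exact permutation p of 1.00. With a window of 200 nt to either side the difference was 5.11 points and the groups separated (exact permutation p = 0.333).

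**Figure D2:**
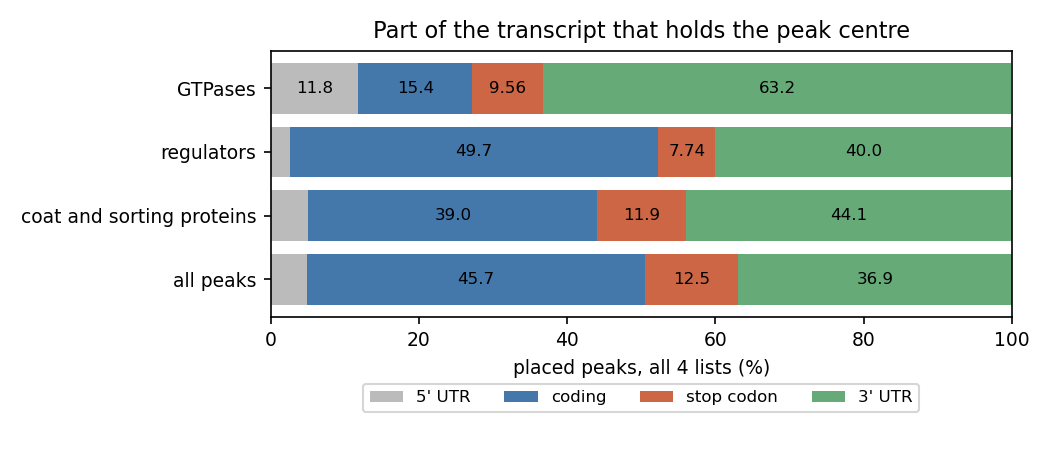
Share of placed peaks (x axis, percent, 4 lists together) in the 5′ UTR, coding sequence, stop codon window and 3′ UTR for GTPases, regulators, coat and sorting proteins and all peaks. GTPases had 63.2% of their peaks in the 3′ UTR and all peaks 36.9%.

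**Figure D3:**
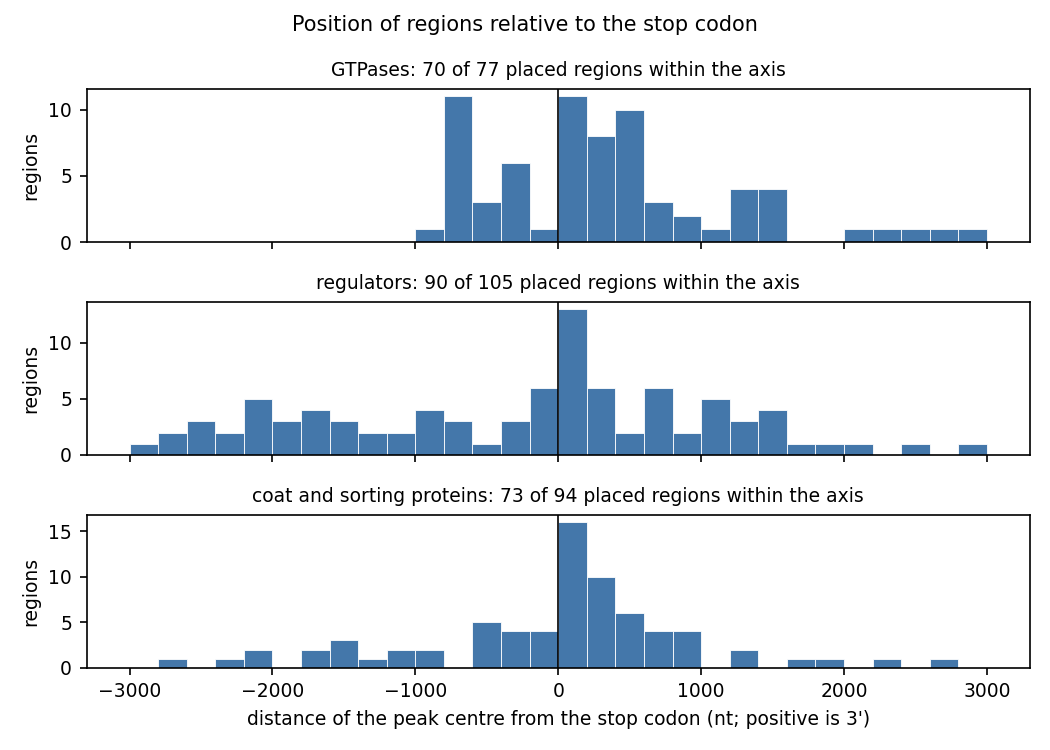
Number of regions (y axis) by distance of the peak centre from the stop codon along the spliced transcript (x axis, nt, bins of 200 nt), for GTPases (70 of 77 placed regions within the axis), regulators (90 of 105) and coat and sorting proteins (73 of 94). The first bin after the stop codon held 11 GTPase, 13 regulator and 16 coat and sorting regions.

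Most member regions were called in 1 library. Of 298 regions, 196 (65.8%) were in a single list, 44 in 2, 31 in 3 and 27 (9.06%) in all 4, against 56.2% and 10.7% at the ends of this range for all regions. Regulator regions were in a single list in 73.6% of cases and in all 4 in 3.64%, GTPase regions in 60.8% and 12.7%, and coat and sorting regions in 59.4% and 11.5%. Strong peaks were among those of a single list: Vps13a at 177-fold and Vps13b at 175-fold, both in coding sequence in control replicate 2, and Rab36 at 173-fold in the 3′ UTR in control replicate 1. The strongest peak of any member, 372-fold on Tbc1d9 in control replicate 2, stood at 49.0-fold and 83.7-fold in control replicate 1 and starved replicate 1 and was not called in starved replicate 2.

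Calls in both starved lists and no control list were found in 10 member regions, 3.36% of the 298, and in 3.20% of all regions. The reverse pattern was found in 14 member regions, 4.70%, and in 4.15% of all regions. Both shares were near those of the whole series, and the 24 regions are given as a description of where calls were replicated in 1 group. They were weaker than the regions in every list. Their median fold enrichment was 6.31 in the starved-only and 9.48 in the control-only regions, and 13.1 in the regions of all 4 lists. Regions of a single list had a median of 15.2, so the level did not rise steadily with the number of lists.

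Of the starved-only regions 3 were on GTPases. Rab5a, the GTPase of early endosome fusion, had a 5′ UTR region at 5.71 and 13.5 in the starved replicates. Its 3′ UTR region was called in every list. Rab8b, a GTPase of transport to the plasma membrane, had a 3′ UTR region at 4.89 and 3.75, and Arf5, a Golgi GTPase, one at 5.51 and 3.07. Of these genes Arf5 alone had no peak in the control lists. On regulators, the TBC protein Tbc1d9 had a coding region at 49.8 and 30.7, the strongest replicated call of the starved group alone. Tbc1d5, which interacts with retromer and limits Rab7, had a 3′ UTR region at 15.7 and 5.70, and Tbc1d10b, a GTPase-activating protein of Rab35 among others, a coding region at 13.5 and 6.89. All 3 regulators had other peaks in both control lists. On coat and sorting genes, Vps13c, a lipid transfer protein at endosome and lysosome contacts, had a coding region at 18.4 and 13.7. The sorting nexin genes Snx11 and Snx12 had regions at 10.9 and 7.81 and at 3.64 and 4.27, and the retromer subunit gene Vps26b a 3′ UTR region at 3.79 and 5.73.

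Of the control-only regions 3 were on GTPases. Rab32, which serves lysosome-related organelles and mitochondria, had a coding region at 11.2 and 7.60 in the control replicates. Rab1 (current symbol Rab1a), which acts in transport from the endoplasmic reticulum to the Golgi and in autophagosome formation, had a 5′ UTR region at 9.39 and 5.61, and another region called in 3 lists. Arf6, a GTPase of the plasma membrane and of recycling, had a 3′ UTR region at 6.17 and 4.06. A sequence 95.8% identical to that Arf6 region stands elsewhere in the genome, so its reads cannot be assigned with certainty. On regulators, Dennd5b had the highest control-only values, 31.1 and 31.3 in coding sequence. Its paralog Dennd5a had a stop codon region at 9.50 and 2.15. Rab3ip, an exchange factor of Rab8, had a stop codon region at 22.9 and 9.99, and the TBC genes Tbc1d2 and Tbc1d2b had coding regions at 9.69 and 20.4 and at 15.9 and 13.1.

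The other control-only regions were on coat and sorting genes. Vps35, the core subunit of retromer, had its only region in coding sequence, at 14.2 and 3.53. Snx27, the nexin that hands receptors to retromer, had a 3′ UTR region at 13.1 and 5.28 and a coding region at 23.1 and 5.95, and no starved peak. Vps26b, also of retromer, had a 3′ UTR region at 4.52 and 6.05. That region lay 2622 nt after the stop codon, and the starved-only region of the same gene lay 1690 nt after it. Vps4a, the ATPase that takes ESCRT polymers apart, had a 3′ UTR region at 6.79 and 9.46, and Snx33 a coding region at 6.09 and 10.8. These genes are named for the pattern of their calls, and they were not tested as a group.

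**Figure D4:**
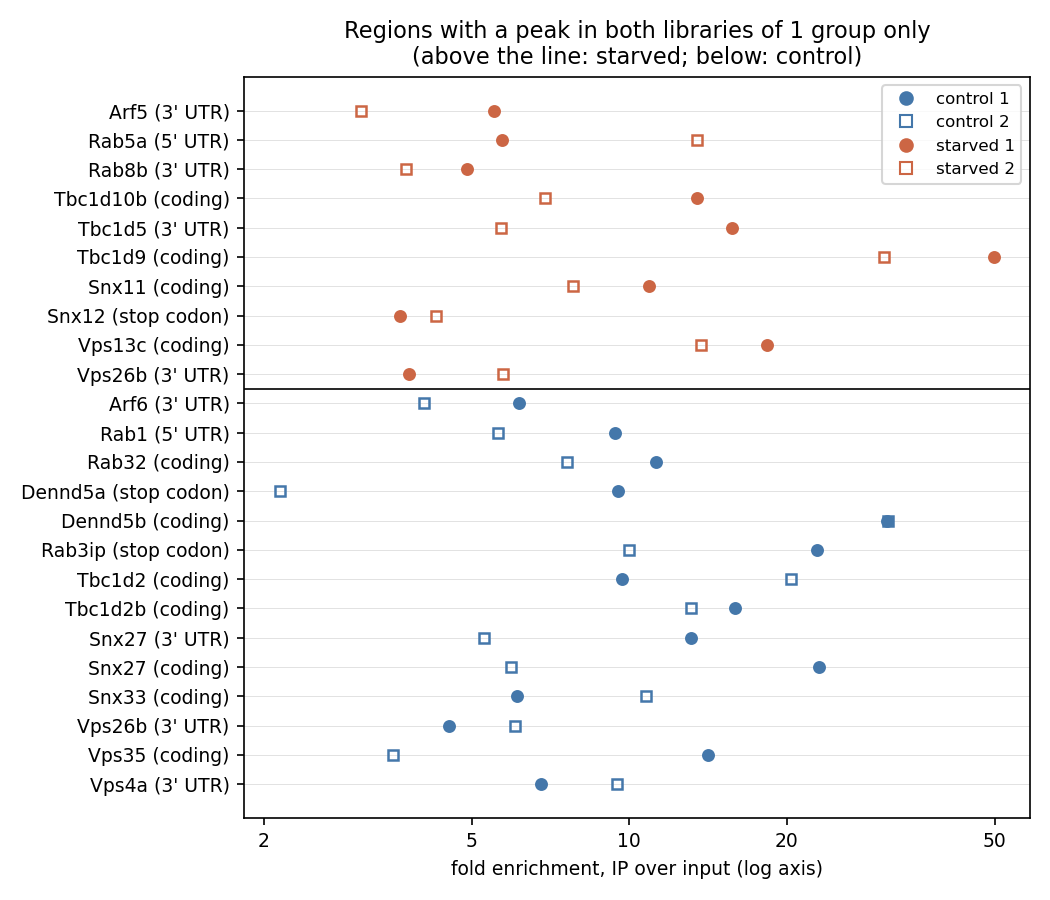
Fold enrichment (x axis, log scale) in each library of the 24 member regions with a peak in both libraries of 1 group and neither of the other, 10 starved-only above the line and 14 control-only below it; circles are replicate 1 and squares replicate 2. The values run from 2.15 to 49.8, with Tbc1d9 and Dennd5b among the highest.

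At the level of genes, 5 of 138 had peaks in both starved lists and in no control list (3.62%, against 3.19% of all genes). They were Arf5, Rab8a, Arfgef1, Rab11fip2 and Snx12. The reverse held for 9 genes (6.52%, against 4.56%): Rab28, Rab32, Rab3ip, Tbc1d4, Tbc1d22b, Snx27, Vps35, Vps39 and Vps4a. Tbc1d4 regulates the Rab proteins of glucose transporter vesicles, and Vps39 is the HOPS subunit that binds Rab7. For Rab8a, Rab28, Arfgef1, Rab11fip2, Tbc1d4, Tbc1d22b and Vps39 the 2 libraries of the group had their peaks in different regions, so no single site was replicated.

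The 27 regions called in every library allowed levels to be compared. Both starved values were above both control values in 7 of them (25.9%, against 22.9% of the 2257 such regions of the series), and both control values above both starved values in 8 (29.6%, against 18.0%). In limma, fitted over all 2257 regions on the log2 scale, no member region had an adjusted p under 0.05, and neither did any other region (0% called). The lowest adjusted p among members was 0.466. At an unadjusted p under 0.05 there were 3 member regions (11.1%), on Dennd2a, Vps29 and Vps26b, and 192 regions in all (8.51%). The median starved minus control difference was 0.0020 log2 units over the member regions and 0.10 over all regions, with 14 member regions higher and 13 lower. The member median changed sign with the settings, from -0.35 under a stricter overlap between the peaks of a region to 0.26 without control replicate 1. Under some other settings with all 4 libraries, limma called regions elsewhere in the series but no member region. They numbered 7 of 2257 with a replicate block, and 1 or 2 with stricter thresholds, equal list lengths, mean values or centred libraries.

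The largest rise in value was on Dennd2a, which encodes a DENN domain protein with exchange activity toward Rab9. Its coding region at chr6:39523098-39523759 stood at 5.16 and 4.17 in the control and 19.1 and 29.9 in the starved replicates. The groups were far apart, and the difference was 2.37 ± 0.70 log2 units (SE), a ratio of 5.15, with an unadjusted p of 0.00837 and an adjusted p of 0.466 in limma. Next was Snx18, a nexin that bends membranes and takes part in autophagosome formation. Its coding region at chr13:113616658-113617760 read 3.48 and 6.40 in control and 15.8 and 12.8 in starved cells, a difference of 1.59 ± 0.71 (limma adjusted p = 0.567). A region in the Snx18 3′ UTR read 7.17 and 2.08 against 8.76 and 7.08, with groups that overlapped.

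Tbc1d13, a GTPase-activating protein of Rab35, had a 3′ UTR region at chr2:30150885-30152013 that read 7.21 and 11.8 in control and 18.1 and 40.5 in starved cells. The difference was 1.55 ± 0.75 (limma adjusted p = 0.586). Rab35 itself, a GTPase of endocytic recycling, read 6.93 and 17.7 against 20.5 and 26.7 in its 5′ UTR, a difference of 1.08 ± 0.75 (limma adjusted p = 0.690). Arfgap1, which switches off Arf1 on Golgi membranes, read 9.91 and 16.1 against 22.0 and 34.0 in a 3′ UTR region at chr2:180981037-180982526, a difference of 1.11 ± 0.71 (limma adjusted p = 0.651). In all 3 the starved values stood above the control values and the spread within a group was wide. The nexin gene Snx4 read 2.13 and 7 against 7.07 and 12.5 in its 3′ UTR, where the middle values nearly touched, and its difference fell to 0.43 log2 units without control replicate 1. Near-identical copies of that Snx4 sequence stand at 2 other places on chromosome 17. Rab8b read 13.2 and 7.76 against 14.6 and 19.6, the smallest of these differences.

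The largest fall in value was on Vps29, the retromer and Commander subunit. Its coding region at chr5:122362036-122362260 read 19.9 and 13.6 in control and 4.02 and 4.96 in starved cells, with no overlap. The difference was -1.88 ± 0.69 log2 units, a ratio of 3.68, with an unadjusted p of 0.0245 and an adjusted p of 0.485 in limma. Vps26b, which forms retromer with Vps29 and Vps35, read 24.6 and 24.6 against 6.24 and 10.6 in a coding region at chr9:27029399-27029984. The difference was -1.60 ± 0.70 (limma adjusted p = 0.567). The Vps26b transcript had 8 regions in all, and the other 7 were called in 1 to 3 lists.

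Vps33a, the HOPS subunit that chaperones membrane fusion, carried the strongest member region present in every library. Its 3′ UTR region at chr5:123529409-123531221 read 234 and 149 in control and 70.2 and 71.4 in starved cells, a difference of -1.40 ± 0.69 (limma adjusted p = 0.599). The starved values were below both controls, and close to each other when the highest peak per library was taken. Starved replicate 1 held 3 peaks in this region, the lowest at 9.75. With the mean of the peaks of a region the difference was -1.99. Vps18, the partner of Vps33a in HOPS and CORVET, read 31.9 and 7.25 against 27.8 and 16.1, and its groups overlapped. Vps13d, the lipid transfer protein needed for mitochondrial clearance, read 7.78 and 30.1 against 56.1 and 23.1, also with overlap.

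The GTPase regions with lower starved values were those of Arf1, Rab12, Rab1b and Rab9. Arf1, the GTPase that recruits coats at the Golgi, read 32.4 and 24.8 against 11.2 and 9.96 in a 3′ UTR region at chr11:59211412-59212695. The difference was -1.43 ± 0.68 (limma adjusted p = 0.586). Sequences 97.4% and 96.6% identical to this Arf1 region stand at 2 other places in the genome, so its values may include reads of those copies. Rab12, which acts on recycling endosomes and in autophagy, read 109 and 60.2 against 41.0 and 37.1 in a 3′ UTR region at chr17:66494512-66495803, a difference of -1.06 ± 0.71 (limma adjusted p = 0.673) that was -0.63 without control replicate 1. Rab1b, of early secretory transport, read 15.1 and 15.3 against 4.35 and 12.9, and Rab9, of transport from late endosomes to the Golgi, 12.5 and 13.1 against 12.3 and 8.19. The first of these rests on 1 low library and the other on a small gap. The Rab9 region also has a 96.0% identical copy. Among effectors, Rab11fip5 read 9.84 and 5.58 against 4.69 and 3.39.

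Several regions among the strongest of their class did not follow the groups. Rab13, a GTPase of cell junctions, read 81.1 and 33.5 in control and 8.46 and 169 in starved cells, so that 1 starved library held the lowest and the other the highest value. Rab11b, of recycling endosomes, read 20.3 and 40.3 against 21.8 and 19.1. Snx33, a nexin of endocytosis, read 34.0 and 22.3 against 28.2 and 26.9, a difference of 0.0020 ± 0.69 log2 units. Rab11fip3 read 24.2 and 5.68 against 8.59 and 4.85, and Rab3gap2 10.1 and 29.8 against 20.3 and 5.84. In these 5 regions the replicates of 1 group differed by as much as or more than the groups did. The remaining regions of all 4 libraries, on Snx3, Snx30, Rab5a and Rab31, overlapped between groups as well. Over the 27 regions the median gap between replicates was 0.81 log2 units in control and 0.59 in starved cells, and the median absolute difference between group means was 1.02. Over all 2257 regions these medians were 0.70, 0.84 and 0.69.

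**Figure D5:**
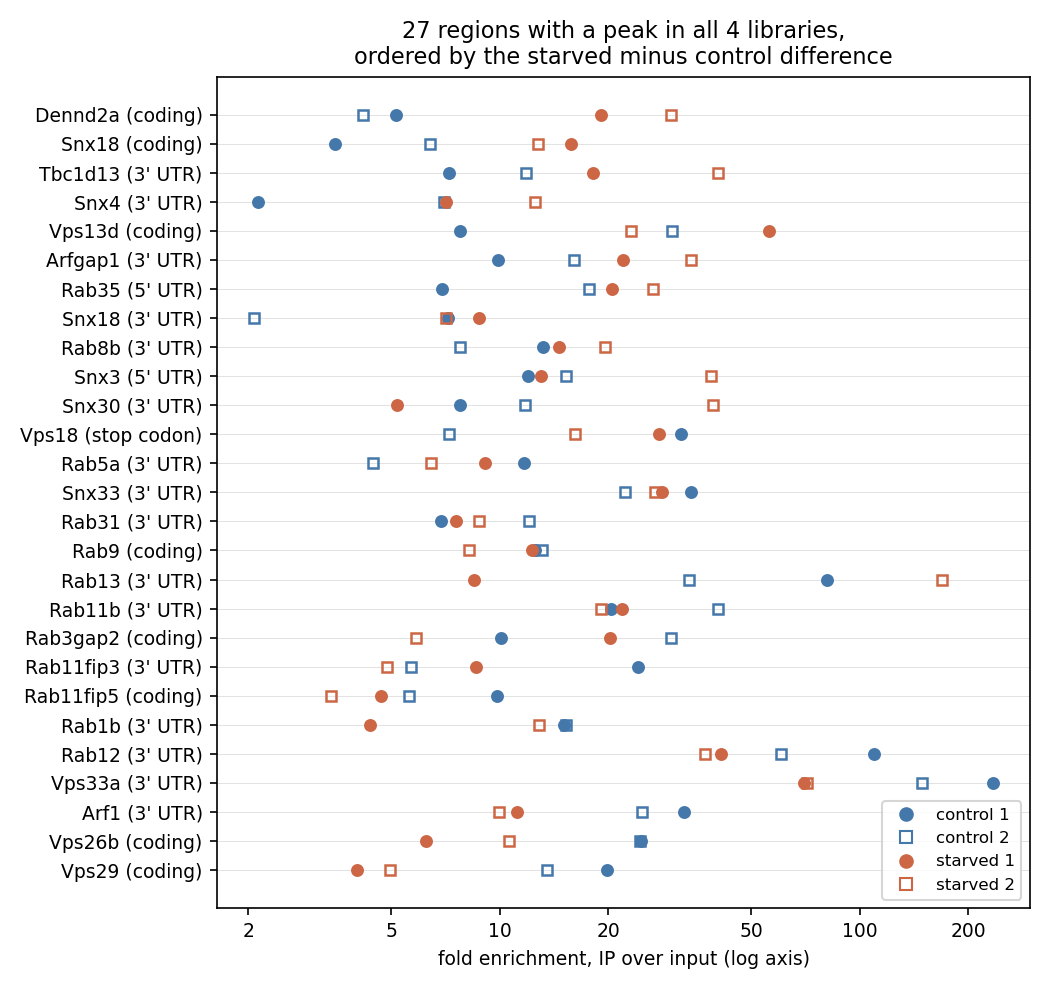
Fold enrichment (x axis, log scale) of the 27 member regions with a peak in all 4 libraries, ordered by the difference between starved and control means on the log2 scale; blue is control, orange is starved, circles are replicate 1 and squares replicate 2. Dennd2a stands at the top with starved values of 19.1 and 29.9 over control values of 5.16 and 4.17, Vps29 at the bottom, and Rab13 spans 8.46 to 169.

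Of 73 other genes of the same pathways, outside the name rule, 65 had a peak (89.0%), 21 of them in all 4 lists (28.8% of the 73). They were picked by hand for their known roles, and these shares were not tested against those of the members. The marked genes included Pik3r4, a subunit of the VPS34 lipid kinase complex, the tether Eea1, the ESCRT-0 genes Hgs and Stam, the Rab5 exchange factor and effector genes Rabgef1 and Rabep1, and the ESCRT-III genes Chmp1b and Chmp4b. Peaks in both starved lists alone were found on 3 of the 73, Pik3c3 (the VPS34 catalytic subunit), Chmp6 and Git1. Peaks in both control lists alone were found on 2 of the 73, Rabggta and Arfip2. Over all genes these patterns held for 3.19% and 4.56%. Whether the 2 lists shared a site was not checked for these genes. Of the 5 WASH complex genes, which act beside retromer, Washc2 and Washc4 had peaks in every list, Washc1 and Washc5 in 3 lists and Washc3 in none.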

How the data were processed

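MeRIP-seq peak lists were available for the 4 IP libraries of 8 samples, grouped by their titles. Per the study's methods and labels, reads were trimmed with Cutadapt, aligned to mm10 with HISAT2 2.0.4 and searched for peaks with MACS2 in each IP library against its input, and peaks overlapping mRNA exons were kept. The column names are those of an older MACS, so the exact caller is uncertain. The fold enrichment deposited by the authors is the ratio of IP signal over the local input background. The deposited score is minus 10 times log10 of the p-value, and the authors' false discovery rate is a percent. A score of 3100 recurs among the strongest peaks but is not a strict limit, since a Rab1 region reached 3217.75. A table of differential sites, the authors' own comparison of the groups (fold changes and p-values), was not used. 0 columns stayed unmapped. No depth, counting error or limit of detection could be computed.

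Here, peaks overlapping by 1 bp across lists formed a region, valued per library by its highest fold enrichment. A region in every list was tested on log2 fold enrichment with limma 3.58.1 (R 4.3.3) over all 2257 such regions, with Benjamini-Hochberg adjustment. No pseudocount was used and no library was scaled. Values per library were compared by two-sided exact permutation tests. Peak centres were placed on GENCODE M21 transcripts, or RefSeq where these failed, on GRCm38, and 12 of 501 member peaks could not be placed. The stop codon window was 100 nt either side. Starts were raised by 1 to count from 1. Near-identical copies were sequences at least 95% identical over at least 50% of a region (blastn 2.17.0). Scripts ran in Python 3.11.15 (numpy 2.4.6, pysam 0.24.0, matplotlib 3.10.9) with samtools 1.23.1 and were checked on simulated data.

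Classes followed the gene name: GTPases (Rab or Arf with a number and letter), regulators (Tbc1d, Dennd, Arfgef, Arfgap and Rab3 regulators), effectors (Rab11fip) and coat and sorting proteins (Vps and Snx). Genes were named for replicated calls in 1 group, non-overlapping values in all 4 libraries (the 5 largest differences each way in full), or the 3 strongest regions of a class. The Rab36, Vps13a, Vps13b and Tbc1d9 peaks of single or 3 lists, and the other pathway genes named, were chosen after their values were seen. The members and lists were chosen with earlier results of these data known. Alternatives were stricter peak thresholds, equal list lengths, current gene symbols, a wider stop codon window, a narrower motif window, more overlap, mean instead of highest value, centred libraries, a replicate block and each library left out.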

Additional observations from a re-analysis of the deposited data

How the results depend on the processing

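With 2 libraries per group and no depth per library, none of the comparisons over libraries could pass 0.05, whatever the setting, and peaks near the calling threshold can be missing from a list. Of the differences between groups, that in member peaks per library (-3.50) was 11.5 at a false discovery rate under 20% and 4 with lists of equal length, and ran from -11.5 to 4.50 with 1 IP library left out (above 0 without control replicate 2). The difference in member genes with a peak (-7.00) was 7.50 at a false discovery rate under 20% and -5.50 with lists of equal length, and that in the stop codon share (1.05 percentage points) was -0.83 at that rate, 5.11 with a window of 200 nt, and ran from -1.45 to 3.54 with 1 library left out (below 0 without control replicate 2). The differences in the share of peaks on members and in the share with GGAC ran from -0.048 to 0.142 and from -4.43 to 7.53 points in the same way, below 0 without control replicate 1 and without starved replicate 1, and the latter was 8.79 points at a false discovery rate under 20%. Centring each library moved the difference in median log2 fold enrichment to -0.081 and the median over all regions in 4 libraries from 0.10 to -0.11. The cause of these changes was not tested.

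The counts below are given without the share over all regions or genes under the same setting, and stricter thresholds shorten the whole lists. By themselves these counts show no change particular to the members. Starved-only member regions (10) numbered 6 at a fold enrichment of at least 4 and 6 at a false discovery rate under 20%. At that rate the control-only regions (14) numbered 4. Only 10 member regions were then in all 4 lists (27 in the report), of 997 in the whole series (2257). Of these 10, 2 had non-overlapping values with starved higher (7 of 27 in the report) and 4 with control higher (8 of 27). With lists of equal length, 4 of the 22 member regions in all 4 lists had starved higher. The median difference over member regions (0.0020) ran from -0.35 to 0.26. The gene counts, whose alternatives were chosen after seeing the data, were 3 starved-only genes (5) at a fold enrichment of at least 4, and 9 starved-only and 3 control-only genes (9) at a false discovery rate under 20%. Leaving out 1 IP library loosens these patterns by construction, since 1 list then stands for its group: starved-only regions numbered 16 to 61, control-only regions 21 to 71, starved-only genes 10 to 16 and control-only genes 15 to 20.

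Limma called 0 member regions under every alternative with 4 libraries, and 7 of all 2257 with the replicate block (lowest member adjusted p 0.202). Samples share only a replicate number (r = -0.0173 between the deviations of control and starved replicate 1 over 2257 regions). With 1 library left out, differences ran from -2.62 to 1.69 for Rab13, from -0.98 to 0.0050 for Rab11b, from -1.57 to 0.22 for Rab3gap2, from -1.90 to 0.18 for Rab11fip3 and from -0.30 to 0.31 for Snx33, which was -0.21 after centring. Each changed sign without 1 of the libraries, among them control replicate 1 for Rab13 and Rab11fip3 and control replicate 2 for the other 3. The 15 regions with non-overlapping groups were picked because both values of 1 group lay beyond both of the other. Leaving out 1 library could therefore hardly reverse them, and their kept direction is no sign of robustness. With 1 library left out, where a value could be computed, Dennd2a ran from 2.04 to 2.69, Vps29 from -2.16 to -1.60, Vps26b from -1.98 to -1.22 and Arf1 from -1.62 to -1.23. The differences shrank by over 1.5 times without control replicate 1 for Snx4 (0.43), Rab12 (-0.63), Rab11fip5 (-0.48) and Rab35 (0.41), without control replicate 2 for Rab8b (0.36), without starved replicate 1 for Rab1b (-0.24) and without starved replicate 2 for Tbc1d13 (0.97) and Rab9 (-0.058). Tbc1d13 had no value without starved replicate 1, nor Snx4 without control replicate 2.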
